A study of Mus musculus with 2 samples.

Results

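Cyclic AMP modulates the beating rate of pacemaker cells, and 10 mouse genes of its signalling were examined here for peaks of the transcription factor ISL1. They are the Popeye genes Popdc2, Popdc3 and Bves, the phosphodiesterase genes Pde3a, Pde4b and Pde4d, the adenylyl cyclase genes Adcy1 and Adcy8, the G protein regulator gene Rgs4 and the muscarinic receptor gene Chrm2. A peak was counted for a gene when the deposited annotation named that gene as the one with the nearest transcription start site (TSS), at any distance. Under that rule 5 of the 1483 peaks belonged to 4 of the 10 genes: Pde3a had 2, and Popdc2, Popdc3 and Adcy8 had 1 each. Bves, Pde4b, Pde4d, Adcy1, Rgs4 and Chrm2 had none. Of the 26220 RefSeq genes with a curated transcript, 3.82% were nearest to a peak. The genes were chosen from this same peak list, with the genes its peaks name already known, so the values below describe them and no test is attached to them.

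The series profiled cells of the sinoatrial node, where the heartbeat starts, from ICR mice aged 1 to 3 days after birth. Both libraries, 1 ISL1 immunoprecipitate and 1 input DNA, came from cells carrying Hcn4-H2BGFP, a fluorescent histone reporter driven from the pacemaker channel gene Hcn4, and sorted for its signal. The sort keeps any cell of the dissected node in which that reporter is on, and no expression values were used here that would check the cell type against its markers. With 1 ISL1 library there is no replicate, no contrast between conditions and no estimate of the spread between animals.

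In pacemaker cells, adenylyl cyclases make cyclic AMP and phosphodiesterases degrade it. Cyclic AMP opens the pacemaker channels directly and acts through protein kinase A on calcium handling, while Popeye proteins bind it at the plasma membrane. The muscarinic receptor of the vagal nerve lowers it through inhibitory G proteins, whose signal RGS proteins shorten.

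The peak in the Popdc2 promoter was the only one of the 5 within 10 kb of a TSS. The RefSeq sequence of the 250 bases before a Popdc2 start is shown because it is the only promoter of the 10 genes at which a peak was listed. It lies at chr16:38361940-38362189 of GRCm38.p6 on the plus strand and is written 5′ to 3′, with the capitals marking the letters TTATCT. These are the reverse complement of AGATAA, a form of the GATA motif.
Popdc2 promoter: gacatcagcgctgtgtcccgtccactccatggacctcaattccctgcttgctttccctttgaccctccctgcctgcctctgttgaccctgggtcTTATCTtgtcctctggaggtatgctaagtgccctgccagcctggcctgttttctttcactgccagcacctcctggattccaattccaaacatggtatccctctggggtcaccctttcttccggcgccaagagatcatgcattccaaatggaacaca

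In Popdc2, which encodes a cyclic AMP-binding membrane protein of striated and pacemaker muscle, the peak lay at chr16:38362097-38362241 in mm9. Its centre was 90 bp upstream of the TSS of the transcript NM_001081984, and it reached from 162 to 18 bp upstream. Only 14 of the 1483 peaks had their centre closer to a TSS. The score was 15.1, equal to the median of the whole list. Among the 48 peaks with the promoter annotation, whose median was 12.3, 10 scored higher, 3 others had the same score and 34 scored lower. The focus ratio, HOMER's measure from 0 to 1 of how sharply the tags centre on a peak, was 0.857, above that of 87.0% of all peaks. No repeat was named for this peak.

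The Popdc2 promoter was searched on both strands for 6 motifs over 250 bases before to 50 bases after the start. It held none of the homeodomain letters TAAT, which were present in 58.0% of the 32851 mouse promoters of the same length. TAATTA (5.29% of promoters), CTAATG (7.36%) and the TALE homeodomain letters TGACAG (19.2%) were absent from it as well. The 4 letters TAAT are contained in TAATTA and CTAATG, so these 3 searches overlap. AGATAA occurred once, beginning 156 bases before the start, and 11.2% of all promoters held it. The E-box CANNTG, found in 72.3% of promoters, occurred at 2 places, beginning 13 and 2 bases before the start. The GC content of the 250 bases was 54.4%, against a median of 52.4% over all promoters. The table does not say whether its start is the TSS used for the 90 bp, and its build differs from mm9, so the motifs were not placed within the peak.

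Popdc3, another Popeye gene, had 1 intergenic peak at chr10:44949753-44949897 in mm9, 59.3 kb upstream of its TSS. The score was 16.4, which 436 of the 1483 peaks exceeded and 130 others shared. The focus ratio was 0.714, close to the list median of 0.739, and no repeat was named. Of the 2 Popeye genes with a peak, one thus had it at the promoter and the other far upstream, with scores 1 step of the score scale apart.

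Bves encodes the founding member of the Popeye family and was nearest to no peak. In the RefSeq gene order it lies between Popdc3 and Lin28b, an RNA-binding protein gene, and both of these neighbours had a peak of score 16.4. The Lin28b peak (chr10:45178899-45179043, mm9) was in intron 2 of 4 of Lin28b. It lay 229 kb from the Popdc3 peak.

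**Figure D1:**
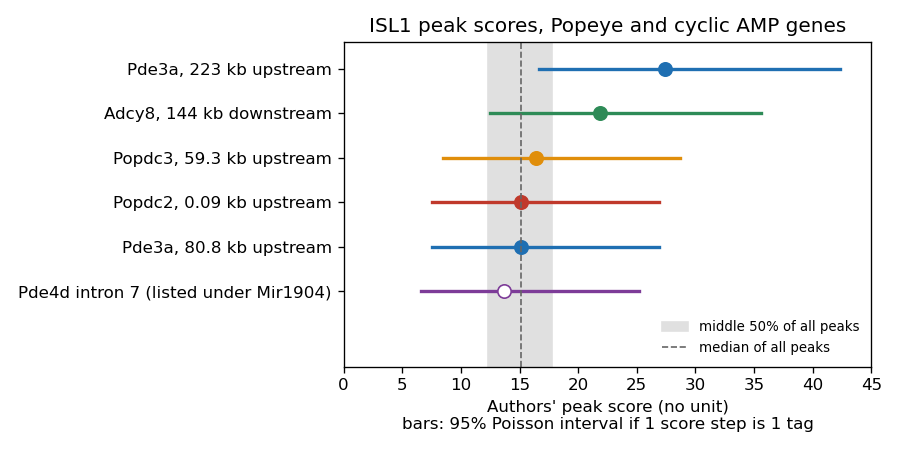
Authors' peak score of the 5 peaks listed under Popdc2, Popdc3, Pde3a and Adcy8 (filled points) and of the peak inside Pde4d that is listed under Mir1904 (open point), with bars for the exact 95% Poisson interval if a score step is 1 tag. The shaded band runs from 12.3 to 17.8, the quartiles of all 1483 peaks, and the dashed line is their median of 15.1; the highest Pde3a peak and the Adcy8 peak lie to the right of the band.

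Rounded to 3 digits, as the scores were deposited, whole multiples of a step of 1.368 gave every score. If such a step stands for 1 sequenced tag, the Popdc2 peak rests on 11 tags (exact Poisson 95% interval 5.49 to 19.7) and the Popdc3 peak on 12 (6.20 to 21.0). On the score scale these intervals run from 7.51 to 26.9 and from 8.48 to 28.7, so the scores of the 2 Popeye peaks cannot be ordered at this depth. The intervals cover counting error only.

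Pde3a encodes a phosphodiesterase that degrades cyclic AMP and is inhibited by cyclic GMP. It was the only one of the 10 genes with 2 peaks; 275 of the 1003 genes in the list (27.4%) had 2 or more. The higher peak, of score 27.4, was intergenic at chr6:140975186-140975330 (mm9), 223 kb upstream of the TSS. It stood above 94.6% of all peaks, and 65 of the 1483 scored higher. Among the 798 intergenic peaks 41 scored higher. The lower peak, of score 15.1, lay 80.8 kb upstream at chr6:141116956-141117100. The deposited annotation placed it on a MER57D element, a long terminal repeat of the ERV1 family.

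The 2 Pde3a peaks were 142 kb apart and on the same side of the gene, and both distances led back to 1 TSS position in mm9. Their scores differed by 9 steps, with 20 tags against 11 if steps are tags. The Poisson intervals, 16.7 to 42.3 and 7.51 to 26.9 on the score scale, overlapped. Of the whole list 116 peaks (7.82%) were on a repeat, 41 of these on a long terminal repeat and 3 on one of the ERV1 family. The Pde3a peak was the only one on MER57D. How reads of repeated sequence were placed is not given in the sources used here, and its part in the lower peak was not tested. The higher peak had no repeat in its annotation and a focus ratio of 0.8, against 0.75 for the lower.

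Pde4d encodes a cyclic AMP-specific phosphodiesterase of the heart and was named nearest to no peak, yet 1 peak lay inside it. This peak, at chr13:110612724-110612868 (mm9), was in intron 7 of 16 of the transcript NM_011056 and is listed under the microRNA gene Mir1904, whose TSS was 81.2 kb away. Its score of 13.7 was below the list median and above 33.5% of peaks. The focus ratio was 0.846, above 84.1% of peaks, and no repeat was named. The next peak on the chromosome was 1990 kb away, so it stood alone. Pde4b, its paralogue, had a peak neither by the nearest TSS nor inside the gene.

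**Figure D2:**
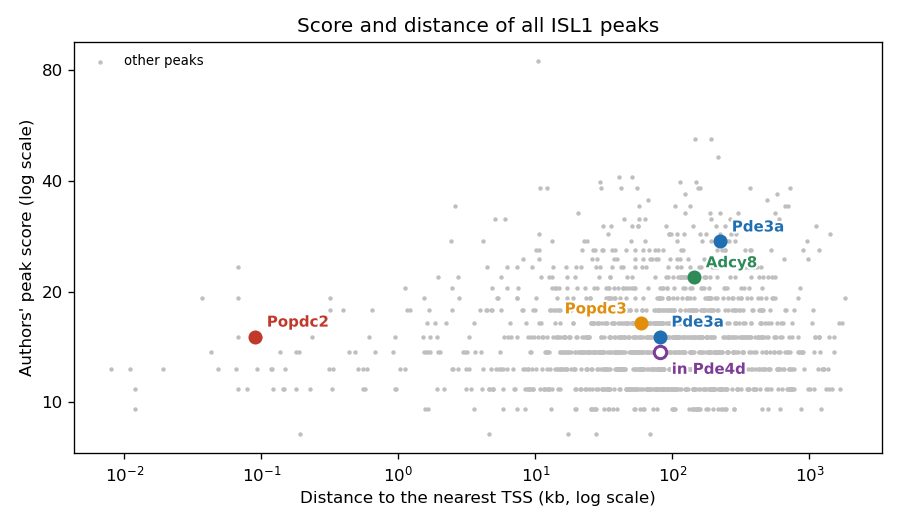
Authors' peak score against the distance to the nearest TSS for all 1483 peaks (grey points), both on log scales, with the peaks of Popdc2, Popdc3, Pde3a and Adcy8 filled and the peak inside Pde4d open. Popdc2 lies at 0.09 kb, far to the left of the others, which lie between 59.3 and 223 kb.

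Adcy8 encodes an adenylyl cyclase stimulated by calcium. Its peak, at chr15:64609605-64609749 in mm9, was in intron 7 of 16 of Adcy8 itself, 144 kb downstream of the TSS. The score was 21.9, above 86.3% of all peaks. Of the 605 intronic peaks 65 scored higher and 522 lower. The focus ratio of 0.864 was the highest of the 5 and above 88.7% of all peaks. The peak rests on 16 tags if steps are tags (9.15 to 26.0), or 12.5 to 35.6 on the score scale. The nearest other peak was 1580 kb away, and none of the 3 protein-coding genes on either side of Adcy8 had a peak. Adcy1, the other calcium-stimulated cyclase gene of the set, had none.

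Rgs4, which encodes a protein that shortens inhibitory G protein signals and is known from the sinoatrial node, had no peak by either way of counting. Chrm2, the gene of the main cardiac muscarinic receptor, had none either. Its direct neighbours in gene order did: Mtpn had 1 of score 10.9 and Ptn 1 of 12.3, at 358 and 85.6 kb from their own TSS. Creb3l2, also among the 3 protein-coding genes on either side, had a peak of 13.7. The positions of these peaks relative to Chrm2 were not measured. Counting 3 protein-coding genes on either side, 3 of 6 had a peak around Chrm2 and 4 of 6 around Bves, Popdc3 among the latter. Around Adcy1 and Rgs4 it was 1 of 6 each, and around Pde4b and Pde4d 0 of 6 each. Around the genes with a peak it was 3 of 6 for Popdc3, 1 of 6 for Pde3a, and 0 of 6 for Popdc2 and Adcy8. Of all RefSeq genes with a curated transcript, 3.82% were nearest to a peak at any distance. The neighbours were added after their values were seen, and Popdc3 and Bves share several of theirs, so nothing is read from these counts.

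Taking the 5 peaks as a set, 3 were intergenic, 1 intronic and 1 at a promoter. In the whole list 53.8% were intergenic, 40.8% intronic and 3.24% at promoters. The Adcy8 peak alone was downstream of its TSS and the other 4 were upstream, where 41.2% of all peaks lay. The median score of the 5 was 16.4 (range 15.1 to 27.4), against 15.1 for all peaks (quartiles 12.3 and 17.8). Their median distance was 80.8 kb, against 83.4 kb. With 5 peaks these figures give no ground for setting the genes apart from the list. By the highest score per gene, 63 of the 1003 genes stood above Pde3a, 145 above Adcy8, 350 above Popdc3 and 452 above Popdc2.

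Of the 26220 RefSeq genes with a curated transcript, 3.82% were nearest to a peak at any distance, 2.57% to a peak within 100 kb, and 1.88% held a peak in their annotated body or promoter. For the 10 genes the counts were 4, 3 and 3. The 3 within 100 kb were Popdc2, Popdc3 and Pde3a, and the 3 that held a peak were Popdc2, Pde4d and Adcy8. Only Popdc2 was counted in all 3 ways. As the genes were chosen on these peaks, nothing is read from the excess of their counts.

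More of the pathway was counted in 11 lists of 116 genes, the 10 genes included. The lists were drawn up by family, with earlier results of these data known. Of all 116, 9 (7.76%) were nearest to a peak at any distance. The 10 genes, chosen from this peak list, made up 4 of these 9, so leaving them out lowers the share. Without those 10, 5 of 106 genes (4.72%) were nearest to a peak at any distance, near the background of 3.82%. Within 100 kb there were 3 (2.83%, background 2.57%), and 4 held a peak in their body (3.77%, background 1.88%). These shares carry no test, and they hold for the genes listed only. Genes outside the lists, such as Rxfp1, Calcrl, Tshr, Sphkap and Cngb3, also had peaks, so other lists could give other shares.

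Among the 16 phosphodiesterases that degrade cyclic AMP, Pde1a, a calmodulin-activated enzyme, was the other gene with peaks besides Pde3a. It too had 2. One, of score 26.0, was in intron 1 of 14 of Pde1a, 74.7 kb downstream of the TSS of NM_016744. The other, of 21.9, was 92.1 kb downstream of the TSS of another Pde1a transcript, NM_001009978, and in the last exon of a noncoding transcript of Ppp1r1c. The 2 peaks were 238 kb apart. None of the 5 phosphodiesterases specific for cyclic GMP had a peak. Adcy8 was the only one of the 10 adenylyl cyclases.

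Of the 21 RGS genes, Rgs3 had a peak of 17.8 in intron 5 of 15, 7.96 kb downstream of its TSS, and Rgs22 had 1 of 10.9 in intron 20 of 27. Intron 22 of Rgs22 held 2 more, of 24.6 and 12.3 and 0.322 kb apart, which are listed under Cox6c. Of the 14 G protein subunit genes, Gnaz was nearest to a peak of 16.4, which lay 328 kb away in intron 33 of 34 of Pcdh15. Of the 14 A-kinase anchoring protein genes, Akap13 had a peak of 12.3 in intron 4 of 36. None of the 5 muscarinic receptors was nearest to a peak, nor were the other receptors listed, among them the adenosine receptors Adora1, Adora2a, Adora2b and Adora3 and the peptide receptors Vipr1, Vipr2, Adcyap1r1 and Glp1r. The 9 protein kinase A genes and the 8 genes of other cyclic AMP sensors and channels, Hcn4 among them, had none either.

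The lists do not hold every gene tied to cyclic AMP, and 5 further genes with peaks were picked out after their values were seen. They are examples and not a full count. Pde4dip, a gene not picked, was nearest to a peak of 9.58 at 8.41 kb. The relaxin receptor gene Rxfp1 had 2 intergenic peaks, of score 31.5 at 5.09 kb and of 12.3 at 4.72 kb upstream, both on an ORR1E-int repeat. Calcrl, the gene of a peptide receptor coupled to cyclic AMP, had 1 of 15.1 in its promoter, 98 bp upstream of the TSS. Tshr, the thyrotropin receptor gene, had 1 of 15.1 in intron 1 of 9. Sphkap, an A-kinase anchoring protein gene, had 1 of 16.4 in intron 2 of 10, and the cyclic nucleotide-gated channel gene Cngb3 was nearest to 1 of 15.1 at 344 kb.

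**Figure D3:**
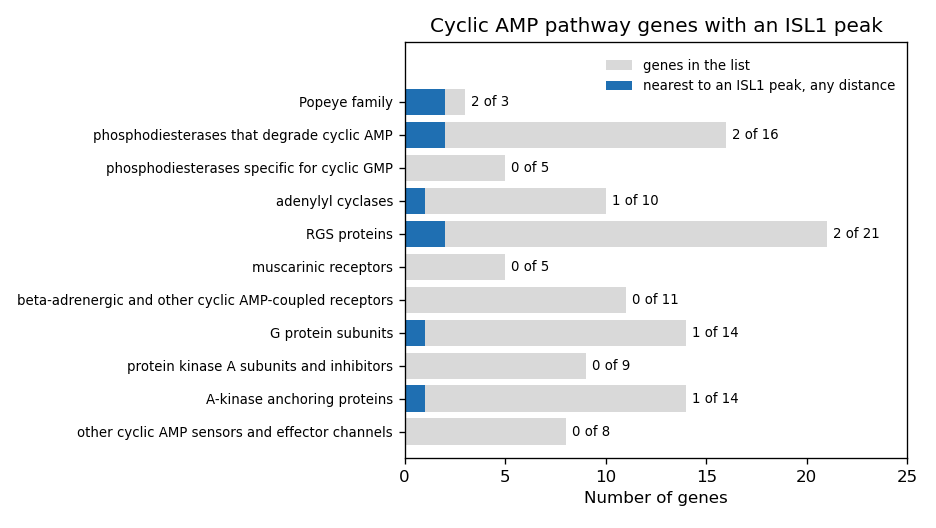
Number of genes in each of the 11 cyclic AMP pathway lists (grey bars) and of those nearest to an ISL1 peak at any distance (blue bars), with the counts beside the bars. Peaks were listed under 2 of 3 Popeye genes, 2 of 16 phosphodiesterases that degrade cyclic AMP and 2 of 21 RGS genes, and under none of the receptor and protein kinase A genes in these lists. The 10 genes chosen from this peak list are included, all 3 Popeye genes among them. Of all RefSeq genes with a curated transcript, 3.82% were nearest to a peak.

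Within 500 kb of the Pde3a TSS there was 1 further peak of another gene, of score 10.9 and listed under Aebp2, a Polycomb cofactor gene. Within the same distance of Popdc2 there were 2 under B4galt4, a galactosyltransferase gene, of 13.7 and 17.8. They lay 368 and 394 kb from the Popdc2 peak. Around Popdc3 there were 2, the Lin28b peak and 1 of 15.1 under Prep, a prolyl endopeptidase gene, 205 kb from the Popdc3 peak. Around Adcy8 there was none. Strand was not given for Popdc3 and Adcy8 in the tables used, and the counts were the same for both TSS positions that the deposited distance allows.

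**Figure D4:**
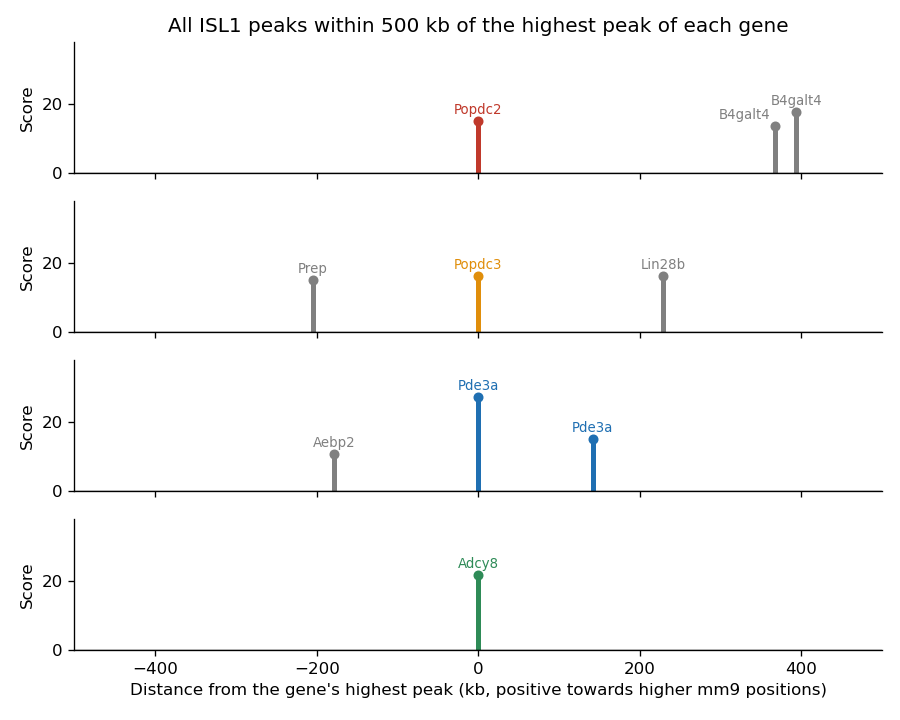
Score of every ISL1 peak within 500 kb of the highest peak of Popdc2, Popdc3, Pde3a and Adcy8, by distance from that peak in kb; coloured stems are peaks listed under the gene itself and grey stems those listed under other genes. Pde3a has a second peak at 142 kb, Popdc3 is flanked by peaks of Prep and Lin28b, and Adcy8 has no other peak in the window.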

How the data were processed

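Sorted sinoatrial node cells were crosslinked, per the labels' protocols, first for 30 min in 2 mM disuccinimidyl glutarate and then for 10 min in 1% formaldehyde, and the chromatin was sheared to 100 to 400 bp. The first agent links proteins to proteins, so a peak need not be direct contact with DNA. Bowtie, HOMER and mm9 are named per the submitters' processing notes; no source used here gives versions, caller settings or the use of the input. Scores are compared within this list alone, as the deposited peak score has no stated scaling. Focus ratios were deposited as a fraction, and the deposited distances and annotations are HOMER's, per the file headers. The input library was not analysed here.

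Peaks were matched to genes by Entrez identifier (1002 of 1003 genes found) and to the gene that holds them by transcript accession (678 of 685 found) in a RefSeq table of GRCm38.p6, used for names and gene order only. The 10 genes, the pathway lists and the motifs were chosen with earlier results of these data known. The rule named every one of the 10 genes, every pathway gene with a peak, hosts, and genes with peaks within 500 kb; neighbours in gene order were added after their values were seen. RefSeq promoter sequences (GRCm38.p6) matched 6 of the 10 genes. Peak sequences were not read, as no mm9 genome was used, and the planned protein identities were not computed. The score step search and motif search were tested on simulated data. Python 3.11.15, pandas 2.3.3 and scipy 1.17.1 were used. Alternatives changed the score, distance, repeat and focus ratio limits, the gene assignment and the merging of peaks.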

Additional observations from a re-analysis of the deposited data

How the results depend on the processing

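Above the 75th percentile (ties kept) of score, 2 of the 5 peaks and 2 of the 4 genes were left, Pde3a and Adcy8, and 4 of the 9 pathway genes. In the whole list 436 of the 1483 peaks (29.4%) met this limit. Counted by gene, 350 of the 1003 genes had a highest score above 16.4, the next score below the limit. With peaks within 10 kb of a TSS, 1 peak and 1 gene were left, Popdc2, and 2 pathway genes, beside 169 of all 1483 peaks. The share of all genes within 10 kb is not given here. Within 100 kb 3 peaks were left, beside 822 of all 1483 (55.4%). Counting the gene that holds a peak also gave 3, those of Popdc2, Pde4d and Adcy8. In the other settings tried the counts for the 10 genes and the pathway stayed within 1.5 times. The median score of 16.4 ranged from 15.1 to 24.6 over the settings; the highest was that above the 75th percentile, where the choice by score itself raises it. The letters TAAT were in the promoters of 2 of 6 genes, Chrm2 and Pde4b, beside 58.0% of all 32851 promoters. With the 250 bases before the start alone, a window chosen after seeing the data, the same 2 genes held them, beside 54.9%. Pde4b had 4 promoter sequences to search and the other matched genes 1 each. The motif search in the part covered by a peak was not run. No paired analysis was possible because there was 1 ISL1 library, and for the same reason none could be left out.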
